A study of Mus musculus with 2 samples.

Results

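The ELR+ CXC chemokines Cxcl1, Cxcl2, Cxcl3, Cxcl5 and Ppbp, their receptor Cxcr2, the granulocyte growth factor G-CSF (Csf3) and its receptor Csf3r were followed as 1 set of 8 genes, of the 32285 genes in the count tables, in tumors grown in WT and tight skin (TSK) mice. The genes were taken by name, as the ligands and receptors that recruit neutrophils and keep them alive. The rule itself uses no measured level, but the genes were chosen with earlier results of these data known.

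ELR+ CXC chemokines are small secreted proteins that carry the residues glutamate, leucine and arginine just before their first cysteines, and they bind Cxcr2 on neutrophils and draw these cells out of the blood along a gradient. Stromal cells, macrophages and neutrophils themselves can make them, often from genes that the factor NF-kappaB switches on within the first hours of an inflammatory stimulus. G-CSF acts at a distance: it binds Csf3r on granulocyte precursors and mature neutrophils, drives their production in the bone marrow and prolongs their life.

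The tumors came from female C57BL/6 mice 6 to 8 weeks old that received 1000000 cells of the SO line under the skin. SO is a mouse ovarian cancer line that lacks p53 and carries introduced Hras and myc. TSK mice carry an intragenic duplication in Fbn1, which encodes the extracellular matrix protein fibrillin, and live only as heterozygotes; WT mice lack the duplication. Each genotype was 1 droplet library (10x Genomics, counted at the 3′ end of transcripts) made from the pooled tumors of 4 mice, and the labels do not separate the mice in a pool. Tumors had been digested at 37 °C for 30 min, red blood cells lysed and dead cells removed, with no selection for any cell type. With 1 library per genotype there was no replicate check, so no test between genotypes was possible and none is given. All intervals are 95% intervals (exact Poisson for levels, exact Clopper-Pearson for shares, conditional binomial for ratios). They cover counting error only, and not the differences between mice, pools or libraries.

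The libraries held 2332 (WT) and 4436 (TSK) barcodes, and 263 barcodes stood in both. These shared barcodes were left out, together with barcodes of under 200 genes, under 500 unique molecular identifiers (UMIs, which count captured RNA molecules) or over 10% mitochondrial UMIs. There remained 1442 WT cells with 17070622 UMIs and 2961 TSK cells with 45661542 UMIs, at medians of 7658.5 and 7302 UMIs per cell. A cell took a lineage when it held at least 3 UMIs over at least 2 markers of that lineage and at least 2 times as many as of any other, and it is called "neutrophil-like", "fibroblast-like" and so on for that reason. None of the 8 genes is among the markers. Of 4403 cells, 3313 (75.2%) were assigned. Cancer-like cells held 17.2% of all UMIs in WT and 61.5% in TSK, which bears on every value over all cells.

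Neutrophil-like cells made up 35 of 1442 WT cells, or 2.43% (1.70% to 3.36%), and 215 of 2961 TSK cells, or 7.26% (6.35% to 8.26%). Of the markers that assigned them, S100a8, an alarmin of neutrophil cytoplasm, was found in 68.6% of them in WT and 93.95% in TSK. S100a9, its partner, was found in 74.3% and 93.0%. These shares describe the class and cannot check its label, since both genes were used to assign it. Ly6g, the usual surface marker of mature mouse neutrophils, had 0 UMIs in the WT cells and 21 in the TSK cells. Grouping all cells by graph-based clustering put 28 WT and 203 TSK cells of the class in 1 cluster. A further 7 of the WT cells fell in a cluster of 45 cells, all WT, with a median of only 685 UMIs, whose leading genes were Ccl6, Retnla and Retnlg and which was not named.

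The 5 ligands share a short coding motif, and this is shown first because it is what defines the family. In each coding sequence (GENCODE M21, build GRCm38) the codons for glutamate, leucine and arginine, followed by the cysteines of the CXC motif, occurred once, at codons 30 to 32 of Cxcl1, 33 to 35 of Cxcl2 and of Cxcl3, 50 to 52 of Cxcl5 and 49 to 51 of Ppbp. They are in capitals below, with the codons on either side in lower case.
Cxcl1: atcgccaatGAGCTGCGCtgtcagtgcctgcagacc
Cxcl2: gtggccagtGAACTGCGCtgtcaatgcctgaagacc
Cxcl3: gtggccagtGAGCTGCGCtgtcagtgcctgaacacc
Cxcl5: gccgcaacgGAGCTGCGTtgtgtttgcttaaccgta
Ppbp: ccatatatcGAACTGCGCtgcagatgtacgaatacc
The genes themselves lie in a row on the plus strand of chromosome 5, from Cxcl5 (chr5:90759360-90761624) through Ppbp (chr5:90768518-90770063) and Cxcl3 (chr5:90786103-90789600) to Cxcl1 (chr5:90891241-90893115) and Cxcl2 (chr5:90903871-90905938). Cxcr2 is at chr1:74153989-74161246, Csf3 at chr11:98701263-98703629 and Csf3r at chr4:126024550-126044440.

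The promoters of Cxcl1, Cxcl2 and Cxcl3 are shown because these were the most abundant ligands with a window in RefSeq (GRCm38.p6), and because they held the same word near the start. Windows were found for 6 of the 8 genes, all but Cxcl5 and Csf3, and the 250 bases before each start were searched. The longest word that the windows of these ligands shared was GGGAATTTCCC, of 11 letters, whose first letters are a known form of the NF-kappaB consensus. It began 71 bases before the start of Cxcl1, 97 before that of Cxcl2 and 73 before that of Cxcl3. On either strand, it was in 11 of 27025 such windows (0.0407%), those of Cxcl1, Cxcl2 and Cxcl3, from which it was chosen, among them. Capitals mark it in chr5:90891145-90891244, chr5:90903799-90903898 and chr5:90786001-90786100, all on the plus strand.
Cxcl1: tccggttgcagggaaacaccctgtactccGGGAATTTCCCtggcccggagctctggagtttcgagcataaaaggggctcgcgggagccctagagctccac
Cxcl2: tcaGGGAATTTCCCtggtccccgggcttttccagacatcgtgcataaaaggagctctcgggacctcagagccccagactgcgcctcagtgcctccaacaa
Cxcl3: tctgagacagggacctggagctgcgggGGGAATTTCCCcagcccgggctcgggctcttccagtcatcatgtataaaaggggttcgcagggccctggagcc
These letters were not found in the windows of Ppbp, Cxcr2 or Csf3r. A match is a description of the sequence, and binding was not measured here. Cxcl2 and Cxcl3 were the only pair of the 5 ligands whose transcripts shared any stretch of 31 bases, 80 such stretches in all, between bases 61 and 170 of Cxcl2 and between bases 57 and 166 of Cxcl3. None began in the last 500 bases of either transcript, the end from which these libraries were read.

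Taken over all cells, the ligands were split between a neutrophil and macrophage pair, Cxcl2 and Cxcl3, and a fibroblast pair, Cxcl1 and Cxcl5. Cxcr2 lay mostly in neutrophil-like cells, Csf3r was carried by neutrophil-like and macrophage-like cells, and Csf3 and Ppbp were scarce everywhere. With both libraries taken as 1, neutrophil-like cells held 83.6% of Cxcr2, 50.5% of Csf3r, 51.8% of Cxcl2 and 60.1% of Cxcl3 UMIs, and fibroblast-like cells 68.8% of Cxcl1 and 54.8% of Cxcl5 UMIs. The plot of UMIs by source shows each gene's split in each library.

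**Figure D1:**
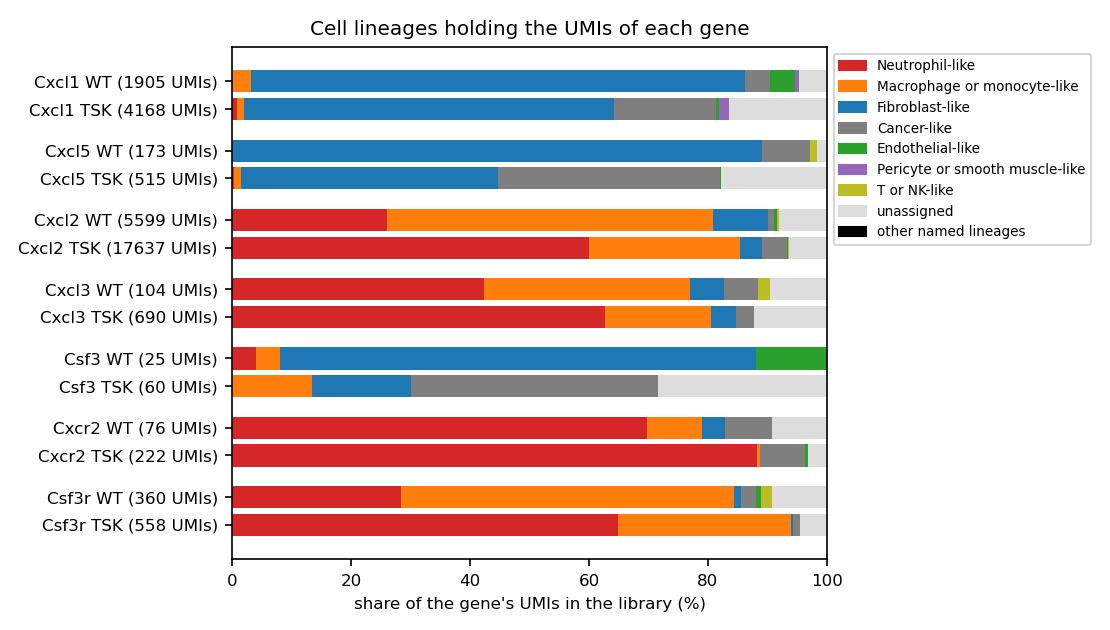
Share of each gene's UMIs (percent, horizontal bars of stacked segments) found in each lineage, for the WT and the TSK library. Cxcr2 UMIs are mostly in neutrophil-like cells in both libraries, while for Cxcl1 and Cxcl5 the fibroblast-like segment is smaller in TSK (62.3% and 43.3%) than in WT (83.0% and 89.0%).

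Cxcl2 (MIP-2), a first-line neutrophil attractant, was the most abundant of the 8 genes by UMIs, with 5599 UMIs in 349 WT cells and 17637 in 874 TSK cells. Neutrophil-like cells held 25.9% of them in WT and 60.0% in TSK, and macrophage-like cells (macrophages and monocytes) 54.9% and 25.4%. In neutrophil-like cells the level was 13151 CPM (UMIs of the gene per 1000000 UMIs of those cells) in WT and 14966 CPM in TSK. In macrophage-like cells it was 757 and 1285 CPM.

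Cxcl2 thus stood at over 10 times the level in neutrophil-like as in macrophage-like cells of each library, and the macrophage share in WT went with their number, 346 cells against 35. A Cxcl2 UMI was found in 85.7% of WT and 95.8% of TSK neutrophil-like cells. T or NK cells, which should lack the gene, had one in 2.79% and 4.70% of cells. The median depths were 3431 and 2018 UMIs for neutrophil-like cells and 6878.5 and 3091 UMIs for T or NK cells. With every cell thinned to 500 UMIs the shares were 74.3% and 88.4% in neutrophil-like cells, 23.1% and 34.2% in macrophage-like cells, and 0% and 0.855% in T or NK cells.

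Cxcl3, a close relative of Cxcl2, was found in 30 WT cells with 104 UMIs and in 130 TSK cells with 690. Neutrophil-like cells held 42.3% and 62.8% of these UMIs, at 399 CPM in WT and 612 CPM in TSK. The macrophage-like cells held 34.6% and 17.8%, at 8.86 and 35.2 CPM. Cxcl3 was the patchier of the pair: 22.9% and 27.4% of neutrophil-like cells had a UMI of it, and 50% of its UMIs lay in 4 WT cells and 14 TSK cells.

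Cxcl1 (KC), the stromal counterpart of Cxcl2, was found in 167 WT cells with 1905 UMIs and in 530 TSK cells with 4168. Fibroblast-like cells held 83.0% of them in WT and 62.3% in TSK, at 405 and 684 CPM. A UMI of it was found in 58.6% and 64.1% of fibroblast-like cells (15.5% and 24.4% when thinned to 500 UMIs). In T or NK cells the shares were 0.279% and 0.855%, and the fibroblast-like cells were the deeper, with medians of 21524 and 11035 UMIs.

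Cxcl1 was low in cancer-like cells, and it was also found in the few pericyte-like or smooth-muscle-like cells. Cancer-like cells held 4.30% of its UMIs in WT and 17.1% in TSK at levels of 27.9 and 25.4 CPM, so that their part of the total followed their number, 85 cells against 920. Of the Cxcl1 UMIs of cancer-like cells, 91.5% in WT and 84.9% in TSK were in cells that also carried the markers of another lineage. Such cells held 86.0% and 77.2% of all UMIs of the class, so these shares were near those of any gene. They were also deeper than the other cancer-like cells, with medians of 47676 against 7026 UMIs in WT and 36758 against 11406 in TSK. The pericyte-like or smooth-muscle-like cells (4 WT and 17 TSK) stood at 764 CPM from 13 UMIs and 493 CPM from 68 UMIs. Of the 17 TSK cells, 13 also carried markers of another lineage, and 59 of the 68 UMIs were in 5 cells. The cluster led by Acta2, Postn and Tagln, with the markers of these lineages (17 WT and 59 TSK cells), stood lower, at 233 and 256 CPM.

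Within the fibroblast-like class, Cxcl1 was higher in cells with a UMI of Clec3b, Pi16 or Cd34, genes of adventitial, progenitor-type fibroblasts, than in cells with none. It stood at 457 CPM (143 cells) against 80.3 CPM (38 cells) in WT and at 838 CPM (205 cells) against 299.8 CPM (82 cells) in TSK. Cxcl5 had the same order, 43.7 against 12.8 CPM in WT and 68.7 against 34.0 CPM in TSK, where the 12.8 CPM came from 7 UMIs in 2 cells. Cxcl2 had the opposite order, 117 against 232 CPM in WT and 148 against 235 CPM in TSK. Cells with a UMI of the 3 genes were the deeper, with medians of 23926 against 8995.5 UMIs in WT and 11320 against 9060.5 in TSK.

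Cxcl5 (LIX), known as a stromal and epithelial ligand, was found in 30 WT cells with 173 UMIs and in 135 TSK cells with 515. Fibroblast-like cells held 89.0% of them in WT and 43.3% in TSK, and cancer-like cells 8.09% and 37.3%. The levels were 39.4 and 58.7 CPM in fibroblast-like cells against 4.76 and 6.83 CPM in cancer-like cells. Of the cancer-like UMIs, 12 of 14 in WT and 181 of 192 in TSK were in cells that also carried the markers of another lineage, which in TSK were fibroblast markers in 508 of 556 such cells. Such cells held 86.0% (WT) and 77.2% (TSK) of all UMIs of the cancer-like class. The other cancer-like cells of TSK stood at 1.72 CPM. In WT the gene rested on very few cells, since 2 of them held 50% of its UMIs, with 55 UMIs in the highest.

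Ppbp (NAP-2), a platelet ligand, was found in 4 WT cells with 6 UMIs and in 8 TSK cells with 11, too few for any level by lineage. No cell of either library was assigned to platelets or megakaryocytes, which allows a share of up to 0.255% of WT cells and 0.125% of TSK cells. A UMI of Pf4, its platelet neighbor on chromosome 5, accompanied it in all 4 WT cells and in 7 of 8 TSK cells. Pf4 was itself common in macrophage-like cells, with 2093 UMIs in TSK. A UMI of the platelet marker list stood beside Ppbp in 3 (WT) and 2 (TSK) of these cells.

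Cxcr2, the receptor of all 5 ligands, was found in 35 WT cells with 76 UMIs and in 118 TSK cells with 222. Neutrophil-like cells held 69.7% of them in WT and 88.3% in TSK, at 480.0 and 277 CPM. A UMI was found in 54.3% and 43.3% of neutrophil-like cells (14.3% and 14.9% when thinned), and in none of the 358 WT and 234 TSK T or NK cells.

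Csf3r, which passes the G-CSF signal through Jak and Stat proteins, was found in 184 WT cells with 360 UMIs and in 265 TSK cells with 558. Its level was 924 and 512 CPM in neutrophil-like cells and 49.7 and 46.4 CPM in macrophage-like cells. Macrophage-like cells, the more numerous of the pair, held 56.1% of Csf3r UMIs in WT and 29.0% in TSK, against 28.3% and 64.9% for neutrophil-like cells. Thinned to 500 UMIs, 25.7% and 29.8% of neutrophil-like cells had a Csf3r UMI, and 2.31% and 2.83% of macrophage-like cells.

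Csf3 itself was close to the limit of detection, found in 10 WT cells with 25 UMIs and in 36 TSK cells with 60. Fibroblast-like cells held 20 of the 25 WT UMIs, in 5 cells with 10 UMIs in the highest, and 10 of the 60 TSK UMIs. Those 20 were all in cells with a UMI of Clec3b, Pi16 or Cd34. These were 143 of the 181 WT fibroblast-like cells and held 3360034 of the 3907965 UMIs of the class. Cancer-like cells held 0 of the WT UMIs and 25 of the TSK UMIs, at 0.890 CPM, and 22 of those 25 were in cells that also carried the markers of another lineage. Such cells held 77.2% of all UMIs of the TSK cancer-like class. The count of 0 in WT cancer-like cells allows a level of up to 1.02 CPM.

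**Figure D2:**
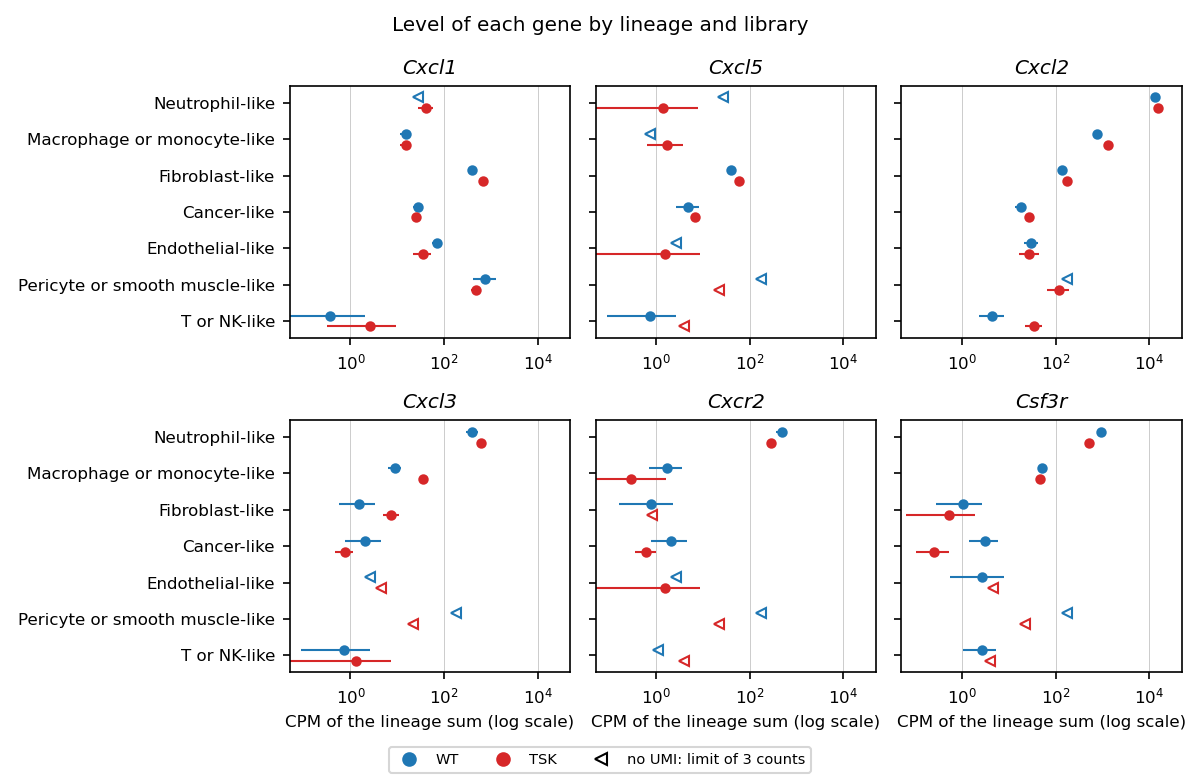
Level of each gene (CPM, log axis) in each lineage in the WT and TSK libraries, with 95% Poisson intervals; open triangles mark lineages with no UMI, drawn at the limit that 3 counts give. Cxcl2 stands highest in neutrophil-like cells (13151 and 14966 CPM), then in macrophage-like cells (757 and 1285 CPM).

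Ligand and receptor met in the same cells. Of neutrophil-like cells with a Cxcr2 UMI, 18 of 19 in WT and 90 of 93 in TSK also had a Cxcl2 UMI. The same held for 12 of 16 WT cells and 116 of 122 TSK cells with no Cxcr2 UMI, which were shallower (median 1630.5 against 3986 UMIs in WT, and 1906 against 2217 in TSK). In TSK these are 96.8% of the cells with a Cxcr2 UMI and 95.1% of those without. Of neutrophil-like cells that had Csf3r, 16 of 23 (WT) and 70 of 139 (TSK) had Cxcr2 as well. Among fibroblast-like cells, 14 of 18 with Cxcl5 in WT and 25 of 32 in TSK also had Cxcl1, as did 5 of 5 and 3 of 4 with Csf3. Cxcl1 was common in the class, found in 58.6% of all its WT cells and 64.1% of its TSK cells. Of those without Cxcl5, 92 had Cxcl1 and 71 did not in WT, and 159 and 96 in TSK.

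Over the 12 lineage and library combinations with 20 or more cells, Cxcl2 and Cxcl3 levels went together (Pearson r = 0.94 on log2(CPM + 1)), Cxcl1 and Cxcl5 less closely (r = 0.77), while Cxcl1 and Cxcl2 had r = -0.06. The genes most like each of them, among genes with 100 or more UMIs, were Palld, Htra1 and Il1r1 for Cxcl1 (r = 0.96 in all 3), Slc16a3 for Cxcl2 (0.97), Gm14286 and Acod1 for Cxcl3 (0.97 and 0.96), Pcolce2 and Cthrc1 for Cxcl5 (both 0.97), Il1rap and Il1f9 for Cxcr2 (both 0.98) and Cd33 and Treml4 for Csf3r (0.98 and 0.97). These are descriptions: the points share 2 libraries, and lineages of low depth give 0 for scarce genes.

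Between the libraries, the comparison was first made over all cells. Of the 7 genes with 20 or more UMIs, 1 was past 2-fold, Cxcl3, which was higher in TSK. Of all 17322 genes with as many UMIs, 19.9% were past 2-fold higher and 18.4% lower. Cxcl3 stood at 6.09 CPM in WT and 15.1 CPM in TSK, a log2 ratio of 1.31 (1.01 to 1.62). Cxcl1 had a log2 ratio of -0.29, Cxcl2 of 0.24, Cxcl5 of 0.15, Cxcr2 of 0.13, Csf3 of -0.16 and Csf3r of -0.79. Cancer-like cells held 61.5% of all TSK UMIs. Of the members' TSK UMIs they held 192 of 515 for Cxcl5, 25 of 60 for Csf3 and 714 of 4168 for Cxcl1. With these cells left out, 3 of the 7 genes were past 2-fold higher, Cxcl2 (1.29), Cxcl3 (2.46) and Cxcr2 (1.24), at a background of 19.9% higher and 8.94% lower. The signs of Cxcl1 and Csf3r turned (0.61 and 0.34), as did that of Csf3 (0.17), whose interval included 0 both times. Those of Cxcl1 and Csf3r also turned with each cell thinned to 500 UMIs (0.53 and 0.88) and with each cell weighted equally (0.81 and 0.76).

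The makeup of the 2 cell samples and the levels within lineages could be separated by arithmetic, with a result that depended on the unit. Per 100 cells, WT held 388 Cxcl2 UMIs and TSK 596, and TSK levels per cell set to the WT shares of each lineage would give 428. For Cxcr2 the values were 5.27, 7.50 and 2.68, and for Csf3r 24.97, 18.8 and 13.5. So the higher Cxcr2 count per cell in TSK went with more neutrophil-like cells, and each of them held, on average, fewer Cxcr2 UMIs than in WT, in shallower cells. Cxcl3 stayed higher at the WT shares, at 15.5 per 100 cells against 7.21 in WT and 23.3 in TSK. For Cxcl1 the values were 132, 141 and 147. The same arithmetic in CPM weighted lineages by their share of UMIs. Cxcl2 then stood at 328 in WT, 386 in TSK and 471 for TSK levels at the WT makeup. For Cxcl1 these values were 112, 91.3 and 178, for Cxcr2 4.45, 4.86 and 2.17, and for Csf3r 21.1, 12.2 and 14.9. For Cxcl2 the third value thus lay between the libraries per 100 cells and above both in CPM.

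**Figure D3:**
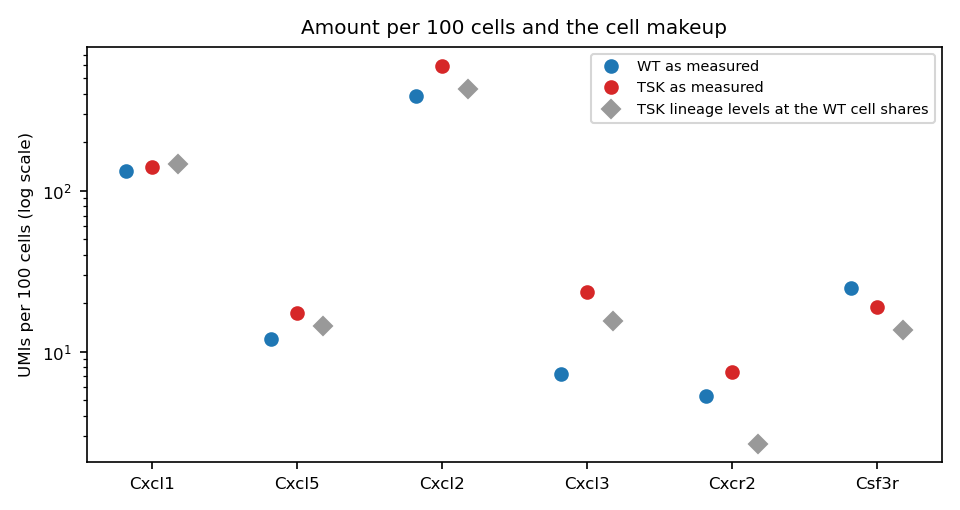
UMIs per 100 cells (log axis) of each gene in WT, in TSK, and with TSK levels per cell at the WT shares of the lineages. For Cxcr2 the third value (2.68) lies below both libraries (5.27 and 7.50), while for Cxcl3 it (15.5) lies between them (7.21 and 23.3).

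In neutrophil-like cells, the ratios depended on a small number of cells with mixed markers. In TSK, 18 of the 215 cells also passed the marker rule's floor for a second lineage (among them cancer markers in 9, macrophage in 6 and fibroblast in 4), and they held 41.1% of the UMIs of the class; in WT it was 1 of 35 cells with 4.16%. No doublet caller was run, and whether these droplets held 2 cells was not tested. Values are given with and without them.

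With all cells, the log2 ratio (TSK over WT) was 0.19 (0.11 to 0.27) for Cxcl2, 0.62 (0.17 to 1.10) for Cxcl3, -0.79 (-1.24 to -0.33) for Cxcr2 and -0.85 (-1.17 to -0.52) for Csf3r. The median gene of the class stood at 0.57, with 42.2% of genes past 2-fold higher and 13.7% lower, and Cxcl2, Cxcr2 and Csf3r lay below that median. Cxcl1, with 0 UMIs in WT and 29 in TSK, counted as the only one of 5 genes past 2-fold. With 3 counts put in for the 0 of WT its log2 ratio was 0.59, and the interval of the counts themselves began at 0.20. Of the TSK UMIs, 65.5% lay in the cells with mixed markers. Without those cells 10 UMIs remained, and the value with 3 counts was -0.24, with an interval from -0.81, which gives no direction.

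Without the mixed cells (34 WT and 197 TSK cells), Cxcl2 stood at 13230 CPM in WT and 22433 CPM in TSK, a log2 ratio of 0.76 (0.68 to 0.84). Cxcl3 stood at 406 and 910.4 CPM (log2 ratio 1.16, 0.71 to 1.65), and was the only one of 4 genes past 2-fold, at a background of 20.8% higher and 11.4% lower. Both receptors then had intervals that included 0, Cxcr2 at -0.18 (-0.64 to 0.29) and Csf3r at -0.26 (-0.59 to 0.07), with the median gene at 0.02. The lower receptor levels of the TSK class as a whole were thus not seen in its single-lineage cells beyond counting error. Over all cells of the class, Csf3r turned higher in TSK with each cell thinned (0.36) or weighted equally (0.12), and Cxcl2 turned lower when scaled to the median gene (-0.38).

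Cell by cell, Cxcl2 in neutrophil-like cells ran from 0 to 508 UMIs per 10000 in WT, with a median of 70.2, and from 0 to 805 in TSK, with a median of 139. The cells of the libraries overlapped across the whole WT range.

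**Figure D4:**
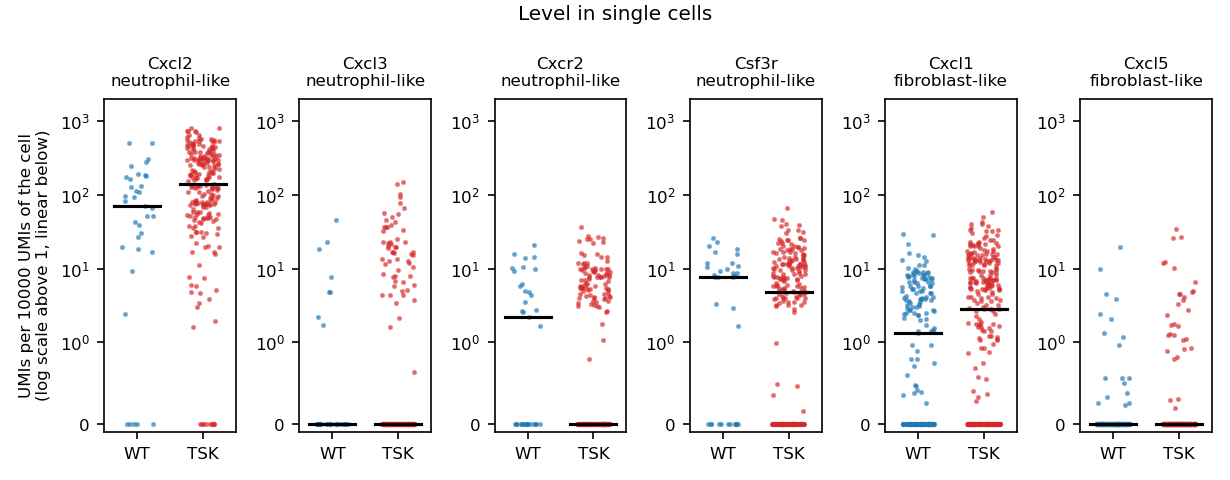
Level in single cells (UMIs of the gene per 10000 UMIs of the cell, symmetric log axis) in the WT and TSK libraries, with bars at the medians. Cxcl2 in neutrophil-like cells has medians of 70.2 and 139, with wide overlap between the libraries.

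In macrophage-like cells, both CXC ligands of the myeloid pair were higher in TSK. Cxcl2 went from 757 to 1285 CPM (log2 ratio 0.76, 0.70 to 0.83), and Cxcl3 from 8.86 to 35.2 CPM (log2 ratio 1.99, 1.45 to 2.57). Cxcl3 was the only one of 4 genes past 2-fold (background 11.3% higher and 3.3% lower). Csf3r had an interval that included 0 (-0.10, -0.41 to 0.21). Leaving out the mixed cells gave 0.75 for Cxcl2, 1.88 for Cxcl3 and -0.15 for Csf3r (background 8.24% higher and 3.57% lower). Cxcl2 was at 739 and 1166 CPM in macrophage-like cells with 3 or more UMIs of the C1q genes, which mark tissue macrophages, and at 793 and 1973 CPM in those with fewer. Cxcl3 stood at 9.40 and 10.8 CPM in the former, and at 7.85 and 176 CPM in the latter, where the 91 TSK UMIs were in 9 cells. Of the 123 Cxcl3 UMIs of all TSK macrophage-like cells, 87 lay in 5 cells.

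In fibroblast-like cells, Cxcl1 went from 405 to 684 CPM (log2 ratio 0.76, 0.67 to 0.85), and Cxcl5 from 39.4 to 58.7 CPM (log2 ratio 0.58, 0.27 to 0.88). Cxcl2 stood at 133 and 173 CPM (0.38, 0.21 to 0.55), but turned lower in TSK with each cell thinned (-0.74) or weighted equally (-0.49). In WT, 109 of its 519 UMIs were in 1 cell. Cxcl3, with 6 and 28 UMIs, was the only one of 5 genes past 2-fold (2.26, 0.97 to 3.83), where 13.4% of all genes were higher and 5.09% lower. Csf3, with 20 and 10 UMIs, had an interval that included 0 (-0.96, -2.22 to 0.20).

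Fibroblast-like cells with mixed markers were many, 69 of 181 in WT and 99 of 287 in TSK, with about the same part of the UMIs of the class (51.7% and 52.2%). They held 97.4% of the WT and 69.1% of the TSK Cxcl5 UMIs. Without them, 4 of 5 genes were past 2-fold higher in TSK, at a background of 10.6% higher and 4.25% lower. Cxcl1 went from 440 to 979 CPM (1.15, 1.03 to 1.27) and Cxcl2 from 75.3 to 212 CPM (1.496, 1.21 to 1.78). Cxcl5 went from 4 to 69 UMIs (4.17, 2.74 to 6.08) and Cxcl3 from 1 to 19 UMIs. The Cxcl5 ratio thus ran from 0.58 to 4.17 with the choice of cells, and it was 0.013 with each cell thinned, so its size cannot be given from these libraries.

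**Figure D5:**
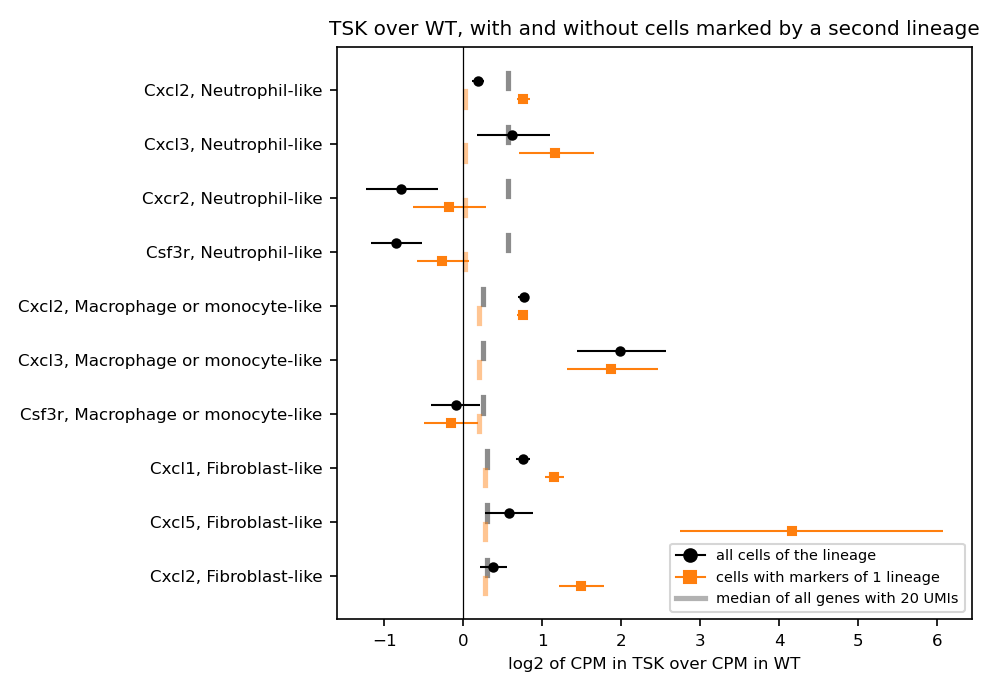
Log2 ratio of TSK over WT with 95% intervals for each gene in neutrophil-like, macrophage-like and fibroblast-like cells, for all cells of the class and for single-lineage cells; thick bars mark the median of all genes with 20 or more UMIs. In neutrophil-like cells Cxcr2 and Csf3r lie below 0 with all cells (-0.79 and -0.85) and have intervals across 0 in single-lineage cells (-0.18 and -0.26).

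Endothelial-like cells went the other way for Cxcl1, with 79 UMIs (69.4 CPM) in WT and 23 UMIs (34.9 CPM) in TSK, a log2 ratio of -0.99 (-1.73 to -0.31), just inside 2-fold (background 17% higher and 7.08% lower). Of the TSK UMIs, 14 were in 1 cell. Cells with mixed markers (20 of 64 in WT, 11 of them with fibroblast markers, and 12 of 58 in TSK) held 77.2% of the WT and 95.7% of the TSK UMIs. Without them there remained 18 and 1 UMIs, a log2 ratio of -3.39 (-8.77 to -0.72). In the cluster named endothelial (73 WT and 65 TSK cells), Cxcl1 stood at 80.1 and 78.1 CPM, a log2 ratio of -0.035. The size of the difference thus depended on how the cells were assigned. Cxcl2 in T or NK cells went from 12 to 26 UMIs (4.43 to 34.1 CPM), past 2-fold higher (background 5.7% higher and 4.31% lower), and 16 of the TSK UMIs were in 1 cell. In cancer-like cells, Cxcl2 stood at 17.7 and 26.1 CPM, above the T or NK level in WT and below it in TSK, and 2 of 6 genes were past 2-fold lower, Cxcl3 and Cxcr2 (background 10.5% higher and 10.1% lower), each from 6 WT UMIs. Csf3, with no WT UMI there, counted as past 2-fold higher, and no fold can be given for it.

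Genes that act with the set were read from 4 lists, in the single-lineage neutrophil-like cells, where 20.8% of all genes were past 2-fold higher and 11.4% lower. Of 13 NF-kappaB early response genes with 20 or more UMIs, 0 were past 2-fold higher and 2 lower, Zfp36 (-1.28), which speeds the decay of cytokine mRNAs, and the cytokine Tnf (-1.30). Their median of -0.41 lay below the 0.02 of all genes, unlike the 0.76 of Cxcl2. Of 16 trafficking genes, Fpr1, a receptor for bacterial peptides, was past 2-fold higher (1.06) and Alox5, which makes leukotrienes, lower (-2.68). The Alox5 ratio rested on 13 WT and 8 TSK UMIs (interval -4.15 to -1.30). Of 7 genes of G-CSF receptor signalling, 0 were past 2-fold, with Socs3, its feedback inhibitor, at -0.65 and Stat3 at -0.12.

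In single-lineage fibroblast-like cells, 3 of 9 NF-kappaB genes were past 2-fold higher and 0 lower, where 10.6% of all genes were higher and 4.25% lower. These were Tnfaip3 (1.40), a brake on the pathway, Ptgs2 (1.01), which makes prostaglandins, and the cytokine Il6 (1.04). Of 8 trafficking genes, read against the same shares, 1 was higher and 3 were lower, Cxcl12 (-1.03), the ligand that retains neutrophils in bone marrow, among them. In single-lineage macrophage-like cells, 0 of 14 NF-kappaB genes were past 2-fold (background 8.24% higher and 3.57% lower), while the trafficking genes Pf4 (3.79), Alox5 (1.37) and Fpr2 (1.17) were past 2-fold higher.

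Digestion at 37 °C can itself induce these chemokines, so 11 genes known to respond to dissociation, such as Fos, Jun, Egr1 and Atf3, were summed. In single-lineage neutrophil-like cells they stood at 13646 CPM in WT and 10653 CPM in TSK, and in macrophage-like cells at 5139 and 5568 CPM. Cxcl2 was higher in TSK in both. In fibroblast-like cells they stood at 7037 and 7950 CPM, and within each library they were higher in cells with a Cxcl1 UMI (8155 against 4175 CPM in WT, 8764 against 5753 CPM in TSK). The same held for Cxcl2 in neutrophil-like cells (13671 against 5476 CPM in WT, from 5 cells without it, and 9123 against 7877 CPM in TSK, from 9). It held for Cxcl2 in macrophage-like cells as well (5449 against 4611 CPM in WT, 6150 against 3998 CPM in TSK). In all of these contrasts the cells with the ligand were deeper, as in WT fibroblast-like cells (medians of 26071 against 11627 UMIs). The part of this response in the ligand levels was not tested.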

How the data were processed

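Single-cell RNA sequencing of 1 WT and 1 TSK library gave the deposited tables of raw counts, which the authors made with Cell Ranger (7.1.0 per the file headers) against mm10. The counts are whole UMIs per gene and barcode, filtered to cell barcodes before deposit and not normalized. Levels were computed as UMIs summed over cells per 1000000 UMIs, and ratios as TSK over WT without a test. A gene was past 2-fold when it had at least 20 UMIs over both libraries and a ratio of 2 or more either way, and genes with 0 UMIs in 1 library were counted as past it. Cells were assigned from raw marker UMIs. Cells with 3 or more UMIs over 2 or more markers of a second lineage were called mixed, and no doublet caller was run. A Leiden clustering (resolution 1, 2000 variable genes, 30 principal components, 20 neighbours) was the alternative assignment. Thinning took 500 UMIs per cell (seed 1). Alternatives kept the shared barcodes or changed the cell limits, the scaling or the cells used. The genes, marker and gene lists were chosen with earlier results of these data known. Genes named were the 8 genes, the 3 most alike for each, and genes of the lists; Ccl6, Retnla and Retnlg were named after their values were seen. Scripts ran in Python 3.11.15 with numpy 2.4.6, scipy 1.17.1, pandas 2.3.3, scikit-learn 1.9.0, igraph 0.11.9 and leidenalg 0.10.2, and the interval code was tested on simulated counts. One result of a listed gene is not reported here.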

Additional observations from a re-analysis of the deposited data

Results flagged for a closer look

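The TSK over WT ratio of Cxcl1 had opposite signs in different lineages, and the difference between lineages was not tested, since each genotype was 1 library. The log2 ratio was -0.99 in endothelial-like cells and 0.76 in fibroblast-like cells, and in neutrophil-like cells, where WT had no UMI, it was at least 0.59 against the floor of 3 counts. Without cells that carried markers of a second lineage, the endothelial-like value was -3.39, from 18 and 1 UMIs, the fibroblast-like value was 1.15, and the neutrophil-like bound was -0.24, which gives no direction.

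Barcodes that failed only the limit of 10% mitochondrial UMIs (117 in WT and 804 in TSK) enter none of the comparisons, yet some of the genes stood above the level of the kept WT cells in them. Cxcl2 stood at 506 CPM in those WT barcodes and 395 CPM in those TSK barcodes, against 328 CPM in kept WT cells and 386 CPM in kept TSK cells, and the TSK value did not differ from that of its own library beyond counting error (367 to 424 CPM). Cxcl3 stood at 29.9 and 25.7 CPM, against 6.09 CPM in kept WT and 15.1 CPM in kept TSK cells. Csf3r stood at 48.3 CPM in those WT barcodes, against 21.1 CPM.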

How the results depend on the processing

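Of 216 values under alternative settings for 31 results, 101 stayed within their intervals, 101 moved, and 14, of ratios whose interval excluded 0, changed sign. Of 116 alternative values for the 14 log2 ratios whose interval excluded 0, 102 kept the sign. Ratios whose interval included 0 changed sign in a further 10 values, counted among those that stayed or moved. No paired analysis was possible because each genotype was 1 library, with no shared replicate. The choices that mattered most were the handling of cells with markers of a second lineage and the weight given to deep cells. Ratios are log2, TSK over WT.

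Keeping the barcodes found in both libraries gave a fibroblast-like share of Cxcl1 UMIs of 66.0% and ratios over all cells of 0.43 for Cxcl2 and -0.57 for Csf3r. Without cancer-like cells (chosen after seeing the data) the ratios over all cells were 0.61 for Cxcl1, 1.29 for Cxcl2, 2.46 for Cxcl3, 0.71 for Cxcl5, 1.24 for Cxcr2 and 0.34 for Csf3r. Allowing 20% mitochondrial UMIs gave a neutrophil-like share of Cxcl2 UMIs of 52.6%.

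Leaving out cells with a second lineage gave 10.2% neutrophil-like cells in TSK, neutrophil-like shares of UMIs of 94.7% (Cxcr2), 56.2% (Csf3r) and 57.9% (Cxcl2), and fibroblast-like shares of 90.2% (Cxcl1) and 76.0% (Cxcl5). Ratios in neutrophil-like cells were then 0.76 (Cxcl2), 1.16 (Cxcl3), -0.18 (Cxcr2) and -0.26 (Csf3r), and in fibroblast-like cells 1.15 (Cxcl1) and 4.17 (Cxcl5). Scaling these cells to the median gene as well (chosen after seeing the data) gave 0.74, 1.14, -0.21 and -0.29 for the same neutrophil-like ratios, 0.55 for Cxcl2 in macrophage-like cells, and 0.87 and 3.89 for the fibroblast-like ratios. Median scaling of all cells gave -0.43 for Cxcl1 and 0.10 for Cxcl2 over all cells, -0.38 (Cxcl2), 0.051 (Cxcl3), -1.36 (Cxcr2) and -1.42 (Csf3r) in neutrophil-like cells, 0.51 for Cxcl2 in macrophage-like cells, and 0.45 (Cxcl1) and 0.27 (Cxcl5) in fibroblast-like cells.

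Thinning each cell to 500 UMIs gave 0.53 (Cxcl1), 1.64 (Cxcl2), 2.34 (Cxcl3), 0.55 (Cxcl5), 1.44 (Cxcr2) and 0.88 (Csf3r) over all cells, 0.88 (Cxcl2), -0.14 (Cxcr2) and 0.36 (Csf3r) in neutrophil-like cells, and 0.63 (Cxcl1), 0.013 (Cxcl5) and -0.74 (Cxcl2) in fibroblast-like cells. Weighting each cell equally gave 0.81 (Cxcl1), 1.56 (Cxcl2), 2.55 (Cxcl3), 1.36 (Cxcl5), 1.11 (Cxcr2) and 0.76 (Csf3r) over all cells. It gave 0.89 (Cxcl2), 1.27 (Cxcl3), -0.11 (Cxcr2) and 0.12 (Csf3r) in neutrophil-like cells, 0.67 for Cxcl2 in macrophage-like cells, and 1.07 (Cxcl1), 1.19 (Cxcl5) and -0.49 (Cxcl2) in fibroblast-like cells.

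Lineages taken from clusters gave UMI shares of 52.6% (Cxcl2, neutrophil-like) and 66.7% (Cxcl1, fibroblast-like). Ratios were 0.67 (Cxcl2), 1.24 (Cxcl3), -0.086 (Cxcr2) and -0.16 (Csf3r) in neutrophil-like cells, 0.88 for Cxcl2 in macrophage-like cells and 1.02 for Cxcl1 in fibroblast-like cells. Cxcl1 in endothelial-like cells had a ratio of -0.035. Upper limits of 10000 UMIs and genes, which remove deep cells, gave 3.80% (WT) and 12.1% (TSK) neutrophil-like cells. Neutrophil-like shares of UMIs were then 95.5% (Cxcr2), 67.1% (Csf3r), 69.8% (Cxcl2) and 67.3% (Cxcl3), and fibroblast-like shares 72.0% (Cxcl1) and 74.4% (Cxcl5). Ratios were 2.76 (Cxcl1), 1.78 (Cxcl2), 2.69 (Cxcl3), 1.20 (Cxcr2) and 0.81 (Csf3r) over all cells, 0.79 (Cxcl2), 1.12 (Cxcl3), -0.18 (Cxcr2) and -0.22 (Csf3r) in neutrophil-like cells, 0.57 for Cxcl2 in macrophage-like cells, and 2.001 (Cxcl1) and -1.84 (Cxcl2) in fibroblast-like cells. The cause of these changes was not tested. Some settings gave no value for a scarce gene, such as Ppbp after thinning, because a library had no UMI of it. Depth limits Ppbp and Csf3 most, and Cxcl3 outside neutrophil-like and macrophage-like cells.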
